A study of Mus musculus with 12 samples.

Results

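The transgene by vector interaction was measured in mouse cardiac ventricles. It is the response to an AAV9 vector in hearts that carry an activator transgene, minus the response to the same vector in hearts that do not. For each gene it was computed on log2(normalized count + 1) as the TG_AAV minus the TG_saline mean, less the WT_AAV minus the WT_saline mean. A value of 0 means that the separate effects of transgene and vector add up to the level seen with both. Genes whose normalized count averaged at least 10 across the 12 libraries were kept, which left 13030 of 24390 gene symbols. All 4 groups were C57BL/6 mice aged 8 weeks, with 3 libraries of total ventricular RNA each. WT_saline is wild-type with saline, WT_AAV is wild-type with the vector that the labels call AAV9 TRISPR Mef2d, TG_saline is Myh6-dCas9VPR with saline, and TG_AAV is Myh6-dCas9VPR with that vector. The Myh6 promoter drives the transgene in heart muscle cells, so other ventricular cell types are not expected to make the activator. Whether each sample is a separate animal, or animals were pooled, is not stated in the labels. Each group held libraries with and without a high level of Xist, so none came from 1 animal alone, and the p-values measure spread between libraries of which some may be technical.

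The transgene encodes a Cas9 without cutting activity, joined to the VPR activation domains, which recruits the transcription machinery wherever a guide RNA takes it. Such an activator raises transcription of an endogenous gene when guide RNAs match that gene's promoter, and neither component is built to do so alone. The design text names activation of endogenous Mef2d after birth as the aim, and the vector was taken to carry guides for that gene, which the labels do not spell out. MEF2 proteins are transcription factors of muscle and nerve cells that bind an AT-rich element in the promoters and enhancers of contractile, metabolic and signalling genes. In the heart MEF2 activity is held back by class IIa histone deacetylases and is known to take part in the response to overload.

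Depth ran from 10233281 to 14911986 recovered reads per library. The heart muscle genes Myl2, Myh6 and Tnnt2 were abundant in every library, with Tnnt2 between 28895 and 43283 normalized counts. Libraries stood apart in 3 ways that the groups do not explain. The atrial light chain Myl7 was above 1000 normalized counts in WT_AAV 1, WT_AAV 3 and TG_AAV 1. It also stood at 728 in TG_saline 1 and 258 in TG_saline 3, and at 19.1 or less in the other libraries. These TG_saline libraries were kept where the 3 libraries above 1000 were left out. Myh2, a fast skeletal myosin, stood between 944 and 1272 in WT_saline 1 and 3, WT_AAV 1, TG_saline 2 and TG_AAV 1 and 2, and below 4 in the other libraries. The female transcript Xist was high in 2 WT_saline libraries and in 1 library of each other group. A further set of 3 wild-type libraries (WT_saline 3, WT_AAV 2 and WT_AAV 3) was set aside in earlier work on these data, and none of these 3 transcripts defines it. Leaving out that set, or the 3 libraries rich in Myl7, leaves 1 WT_AAV library, which is then assumed to vary like the other groups. In bulk tissue, fewer cells of a type and less RNA per cell cannot be told apart.

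Mef2d itself was measured first, since it checks the labels. The 3 WT_saline libraries held 999, 877 and 1178 normalized counts of it, against 973, 1131 and 1102 in WT_AAV, 833, 844 and 839 in TG_saline, and 1989, 2231 and 1897 in TG_AAV. All 3 TG_AAV values lay above the other 9, which overlapped between the wild-type groups. If the separate effects had only added up, TG_AAV would have stood at 885. The vector effect was 1.28 on the log2 scale in transgenic hearts and 0.08 in wild-type hearts, an interaction of 1.20 (SE 0.15, limma adjusted p = 0.00162). An exact two-sided permutation test over all 400 exchanges of the vector label within genotype gave p = 0.07, where the smallest possible is 0.005. Only the observed transgenic split and its mirror reach the observed size, so this p depends on the wild-type values and not on the size of the interaction. The exchange also tests for no vector effect in either genotype, not for the interaction itself. The limma call was lost without the 3 libraries rich in atrial transcripts (1.13, adjusted p = 0.0566) and kept when each library was left out alone (adjusted p up to 0.00821).

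The promoters of Mef2d and of the 2 called genes that hold a MEF2 element are shown because they are the sequences in which the named factor and its known binding site meet the interaction. Each window runs from 250 bases before to 50 after the gene start in RefSeq, build GRCm38.p6, plus strand, and capitals mark the MEF2 element. Mef2d lies at chr3:88142122-88142421, Tcea3 at chr4:136247707-136248006 and Limch1 at chr5:66745639-66745938.
Mef2d: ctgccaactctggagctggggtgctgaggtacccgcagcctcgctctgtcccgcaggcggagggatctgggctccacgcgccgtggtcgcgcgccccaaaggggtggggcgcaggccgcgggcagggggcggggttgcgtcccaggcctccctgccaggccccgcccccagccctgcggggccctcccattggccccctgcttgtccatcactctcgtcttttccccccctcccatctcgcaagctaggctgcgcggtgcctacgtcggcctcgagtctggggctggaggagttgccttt
Tcea3: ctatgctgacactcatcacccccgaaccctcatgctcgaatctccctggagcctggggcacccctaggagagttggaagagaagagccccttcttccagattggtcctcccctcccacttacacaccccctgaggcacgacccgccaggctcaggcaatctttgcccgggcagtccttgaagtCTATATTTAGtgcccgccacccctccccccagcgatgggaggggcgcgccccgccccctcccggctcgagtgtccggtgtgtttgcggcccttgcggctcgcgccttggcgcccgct
Limch1: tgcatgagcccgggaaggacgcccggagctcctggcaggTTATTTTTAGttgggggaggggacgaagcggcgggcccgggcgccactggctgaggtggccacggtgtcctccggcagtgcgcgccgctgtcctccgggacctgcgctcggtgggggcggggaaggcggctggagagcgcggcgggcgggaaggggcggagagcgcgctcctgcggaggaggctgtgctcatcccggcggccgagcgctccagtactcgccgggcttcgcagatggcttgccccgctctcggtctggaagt
The element starts 67 bases before the start of Tcea3 and 211 bases before that of Limch1, and the window of Mef2d holds no match on either strand. Of the 80 genes called higher in the interaction, 72 had a promoter in the table and 2 of these, 2.78%, held the element. The share was 1.89% (195 of 10293) among tested genes with a promoter and 3.26% among all promoters in the table. Of the 31 genes called lower, 21 (67.7%) had a promoter and 0 of these held the element, too few for a share to be read. A match describes letters, not binding.

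Both genes with the element were taken from those called higher, so they stood above the level that addition gives by selection. Tcea3, a transcription elongation factor of the TFIIS family, had 1097, 1029 and 949.6 normalized counts in WT_saline, 1057, 1106 and 1034 in WT_AAV, 751, 797 and 828 in TG_saline, and 1475, 2013 and 1820.4 in TG_AAV. The TG_saline libraries were the lowest and the TG_AAV libraries the highest, without overlap, and the interaction was 1.09 (SE 0.15, limma adjusted p = 0.00318). Limch1, an activator of nonmuscle myosin, had 5405, 5856 and 5085 in WT_saline, 5843, 5913 and 5166 in WT_AAV, 4837, 4817 and 4637 in TG_saline, and 7999, 8815 and 7238 in TG_AAV. Its interaction was 0.70 (SE 0.13, limma adjusted p = 0.0260), with TG_AAV again above the other 9 libraries. The call of Limch1 was lost without WT_saline 1 or 2, any TG_saline library, or TG_AAV 1 or 2 (adjusted p up to 0.0812), and that of Tcea3 was lost under no alternative.

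Across all tested genes, hearts with both components departed from the sum of the separate effects at 111 genes, 0.852% (limma, two-sided, Benjamini-Hochberg adjusted p under 0.05). The interaction was positive at 80 (0.614%) and negative at 31 (0.238%), and 1522 genes had an unadjusted p under 0.05. Of the called genes, 50 were above 1 and 14 below -1 on the log2 scale, 24 and 4 beyond 2, and 19 and 0 beyond 3. Among those above 0, 13 averaged under 10 normalized counts over the 9 other libraries, so they passed the filter only through TG_AAV. They were 13 of the 50 above 1, 13 of the 24 above 2 and 11 of the 19 above 3, against 0 of the 31 called below 0. Of the 13, those described below are B3gat1, Kndc1, Clstn3, Atp1b4, Ccno, Syndig1, Tigd4 and F730043M19Rik. In 110 of the 111, the 3 TG_AAV values all lay outside the range of the other 9 libraries, as they did at 17.5% of all tested genes (above at 10.2% and below at 7.26%). The count depended on single libraries. It was 63 without WT_saline 1, 55 without WT_saline 2, 192 without WT_saline 3, 70 without WT_AAV 2, 54, 73 and 69 without TG_saline 1, 2 and 3, and 57, 39 and 42 without TG_AAV 1, 2 and 3. It was 37 without the 3 libraries rich in atrial transcripts and 41 with Myl7 as a term, while every one of the 111 genes kept its direction in each of the 27 alternatives that tested it.

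The 2 vector effects behind the interaction were unlike each other. In transgenic hearts the vector changed 794 genes, 6.09% (481 higher, 3.69%, and 313 lower, 2.4%). In wild-type hearts it changed 0 genes by limma, 0%, where 514 had an unadjusted p under 0.05, edgeR called 0 and DESeq2 11. The 80 positive genes had a median vector effect of 1.21 on the log2 scale in transgenic and -0.05 in wild-type hearts. The 31 negative genes had medians of -0.81 and 0.06. All these genes were selected by the difference between the 2 effects, so unlike medians and counts among them follow in part from that selection. Of the 111 genes, 109 were called in transgenic hearts with the larger effect there, and the exceptions were Adam23 and Mrpl48. An effect in wild-type hearts beyond 0.5 in size was seen in 5 of the positive and 3 of the negative genes. The count of 794 was 419, 500 and 460 without TG_saline 1, 2 and 3, and 427, 400 and 446 without TG_AAV 1, 2 and 3. The count of 0 was 2 without WT_AAV 2 or WT_AAV 3 and 1 without TG_AAV 1 or TG_AAV 3.

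**Figure D1:**
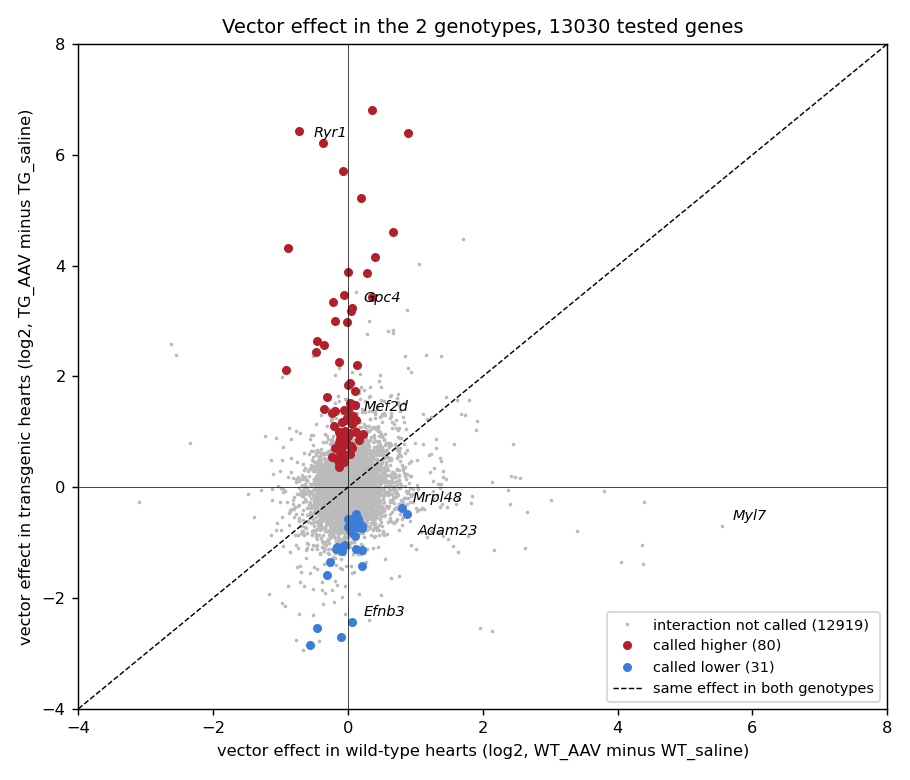
The vector effect in wild-type hearts (x axis, log2) is plotted against that in transgenic hearts (y axis, log2) for the 13030 tested genes, each a point. The 80 genes called higher (red) and 31 called lower (blue) lie near 0 on the x axis apart from a few, the dashed line marks equal effects, and Myl7 lies far to the right without being called.

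The plot of both vector effects also holds the genes that moved in transgenic hearts without a called interaction. Of the 794 genes called in transgenic hearts, 685 were not called in the interaction, whose median SE over all genes was 0.198 against 0.140 for the vector effect in transgenic hearts. The 481 higher genes had a median of 0.70 on the log2 scale in transgenic and 0.06 in wild-type hearts, and 65.3% of them were above 0 in wild-type hearts, against 47.2% of all tested genes. The 313 lower genes had medians of -0.64 and -0.05, and 37.4% were above 0 in wild-type hearts. Over the tested genes the 2 effects, which share no library, had a Pearson's r of 0.104 and a Spearman's rho of 0.118, given as a description. Averaged over all 12 libraries, the positive genes had a median of 258 normalized counts and the negative genes of 821, against 244 for all tested genes. Those averages include TG_AAV, whose high values made genes positive and low values negative. They do not give the abundance of these genes without both components.

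Of the 111 genes, 34 stayed called without each single library (28 higher, 6 lower), and 21 did so in every alternative that gave a value (18 higher, 3 lower). They include Ryr1, Clstn3, Col22a1, Pdzd4, Flrt1, Pigz, Gpc4, Kcnn3, Tmem56, Shisa4, Rab3il1, Lrrcc1, Asb4, Lix1l, Efhd2, Tcea3, Prkg1, Mpdz, Mov10l1 and Efnb3. Those from Pigz to Mpdz in this order were picked for this stability after their values were seen. Among the genes listed here, Clstn3 passed the filter only through TG_AAV. The other genes below were named by size of interaction or by membership of a gene list, and Limch1 for its promoter. Losses listed for a gene are those without single libraries, and losses under other alternatives are given for some genes only. Of the 111 genes, 39 stayed called with Myl7 as a term and 66 with a Myh2 term.

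Genes of calcium release and calcium signalling held the largest interaction. Ryr1, which releases stored calcium in skeletal muscle, stood at 6.66, 14.9 and 20.6 normalized counts in WT_saline, 8.05, 11.2 and 4.29 in WT_AAV, 20.3, 11 and 27.1 in TG_saline, and 1995, 1593 and 1442 in TG_AAV. The 9 libraries without both components overlapped near the bottom of the scale, and addition would have given 10.7. The interaction was 7.15 (SE 0.57, limma adjusted p = 2.84e-05). Myh2, for comparison, stood at 944 and 996 in TG_AAV 1 and 2 and at 0.796 in TG_AAV 3. Myh2 is a single skeletal muscle gene, and the part of such tissue in the Ryr1 values was not tested. Camk2b, a calcium and calmodulin dependent kinase isoform, had means of 182 ± 73.8, 191 ± 56.2, 221 ± 14.1 and 740.3 ± 54.5 (SD, n = 3 each, in the order WT_saline, WT_AAV, TG_saline, TG_AAV). Its interaction was 1.64 (SE 0.34, limma adjusted p = 0.0436), a call kept only without WT_saline 3 or WT_AAV 2 and lost without any other library (adjusted p up to 0.109). Camk2a, another isoform of that kinase, went the other way, with 704, 648 and 752 in WT_saline, 660.0, 755 and 734 in WT_AAV, 637, 582 and 586 in TG_saline, and 390.2, 389.6 and 352 in TG_AAV. Its interaction was -0.70 (SE 0.12, limma adjusted p = 0.0199), lost without WT_saline 1 or 2, WT_AAV 2, TG_saline 1, or TG_AAV 2 or 3 (adjusted p up to 0.0655). Hrc, a calcium-binding protein of the sarcoplasmic reticulum, had means of 11190.2, 11912, 8878 and 6035 and an interaction of -0.64 (SE 0.13, limma adjusted p = 0.0436). That call was kept only without WT_saline 3, WT_AAV 3 or TG_saline 3 (adjusted p up to 0.124 without the others).

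Potassium channel genes moved in both directions. Kcnn3, a calcium-activated potassium channel, had 63.3, 38.9 and 62.9 normalized counts in WT_saline, 36.8, 28.4 and 55.7 in WT_AAV, 66.7, 32.0 and 45.2 in TG_saline, and 198, 280.0 and 442 in TG_AAV. The TG_AAV libraries differed among themselves by more than those of any other group but did not overlap with them, and the interaction was 3.10 (SE 0.48, limma adjusted p = 0.00841). Kcnip2, which assists the channel of the transient outward current, had 2616, 2380.5 and 2245 in WT_saline, 1893, 2447 and 2518 in WT_AAV, 1664, 2012 and 1562 in TG_saline, and 809, 716 and 823 in TG_AAV. TG_saline was partly below the wild-type range and TG_AAV was below all others, with an interaction of -1.06 (SE 0.17, limma adjusted p = 0.0125). This call was lost without the 3 wild-type libraries set aside earlier (WT_saline 3, WT_AAV 2 and WT_AAV 3), at -0.75 (adjusted p = 0.0564). Kcnk3, a background potassium channel, had means of 3569 ± 297, 3982 ± 447, 3216 ± 338 and 1959 ± 249 (SD, n = 3 each) and an interaction of -0.87 (SE 0.17, limma adjusted p = 0.0294). Its call was lost without WT_saline 1 or 2, WT_AAV 1 or 2, TG_saline 2 or 3, or TG_AAV 2 or 3 (adjusted p up to 0.0773). Atp1b4, related to the beta subunits of the sodium pump, had 6 reads in the 9 other libraries together, none of them in TG_saline, and 311 in TG_AAV. Its interaction was 5.49 with the pseudocount of 1, and 6.16 and 3.81 with pseudocounts of 0.5 and 5. The call (SE 0.92, limma adjusted p = 0.0152) was lost without TG_AAV 1 or TG_AAV 2 (adjusted p up to 0.0816) and with edgeR. It was also lost with Myl7 as a term and without the 3 libraries rich in atrial transcripts.

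Genes of the cell surface and of the matrix gave the call with the smallest p. Gpc4, a glypican that carries heparan sulfate chains on a lipid anchor, stood at 419.7, 402 and 398 normalized counts in WT_saline, 421, 454 and 401 in WT_AAV, 389, 380.0 and 461 in TG_saline, and 3863, 4185 and 3589.9 in TG_AAV. The 9 libraries without both components lay within one narrow band, and addition would have given 426. The interaction was 3.18 (SE 0.13, limma adjusted p = 3.18e-08). Pigz, an enzyme that adds a mannose to such lipid anchors, had 15.5, 27.5 and 25.0 in WT_saline, 23, 12.2 and 33.2 in WT_AAV, 22.2, 12.2 and 29.8 in TG_saline, and 231, 234 and 236 in TG_AAV. The TG_AAV values were tight and the rest overlapped, with an interaction of 3.53 (SE 0.51, limma adjusted p = 0.00511). Col22a1, a collagen of muscle and tendon junctions, had 8.88, 17.2 and 13 in WT_saline, 11.5, 19.3 and 13.9 in WT_AAV, 7.73, 4.42 and 10.8 in TG_saline, and 314, 306 and 303 in TG_AAV. TG_saline had the 2 lowest libraries, and the interaction was 5.03 (SE 0.44, limma adjusted p = 7.41e-05). Col8a1, a short-chain collagen of vessels and remodelling tissue, stood at 564 ± 59.1, 609 ± 14.8, 606 ± 50.9 and 1410.0 ± 221 (SD, n = 3 each). Its interaction of 1.09 (SE 0.16, limma adjusted p = 0.00596) was lost without the 3 libraries rich in atrial transcripts (adjusted p = 0.128) and kept without each single library.

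Adhesion proteins were found on both sides. Flrt1, a leucine-rich repeat adhesion protein, had 27.8, 11.5 and 32.6 normalized counts in WT_saline, 25.3, 19.3 and 39.7 in WT_AAV, 25.1, 23.2 and 20.8 in TG_saline, and 225, 470.3 and 395 in TG_AAV. Its interaction was 3.58 (SE 0.53, limma adjusted p = 0.00583), and the lowest TG_AAV library was well above the highest of the rest. Clstn3, a synaptic adhesion protein, had 5, 6 and 5 reads in WT_saline, WT_AAV and TG_saline and 478 in TG_AAV, with an interaction of 5.78 (SE 0.80, limma adjusted p = 0.00388) that was 6.28 and 4.32 with pseudocounts of 0.5 and 5. Efnb3, an ephrin ligand for receptors on neighbouring cells, had 1345, 1036 and 1074 in WT_saline, 1367, 1213 and 1033 in WT_AAV, 1049.7, 772 and 859 in TG_saline, and 155, 209 and 134 in TG_AAV. TG_saline overlapped with the wild-type groups at its upper end and TG_AAV lay far below, where addition would have given 927. The interaction was -2.50 (SE 0.24, limma adjusted p = 0.000155).

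Several called genes are known from synapses and neurons, or carry PDZ domains, which are common in synaptic scaffolds. Pdzd4, a PDZ domain protein, had 36.6, 35.5 and 53.2 in WT_saline, 43.7, 38.6 and 40.7 in WT_AAV, 40.6, 46.4 and 52.4 in TG_saline, and 702, 687 and 708 in TG_AAV. The 3 TG_AAV libraries differed by few counts, and the interaction was 3.89 (SE 0.23, limma adjusted p = 1.59e-06). On the build GRCm38, 10.9% of the exon bases of Pdzd4 overlap Gm14817 on the other strand, and without a stated strand setting reads of the partners cannot be told apart. Mpdz, a scaffold with many PDZ domains, had means of 2136 ± 91.5, 1953 ± 67.7, 2016 ± 80.3 and 3217 ± 113 (SD, n = 3 each) and an interaction of 0.80 (SE 0.10, limma adjusted p = 0.00144).

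Apart from Uchl1, the other genes known from neurons were near 0 without both components, so the size of their interaction depends on the pseudocount. B3gat1, which makes the HNK-1 glycan epitope of nerve cells, had 1 read in WT_saline, 0 in WT_AAV, 0 in TG_saline and 270 in TG_AAV. Its interaction was 6.58 (SE 0.85, limma adjusted p = 0.00224), and 7.78 and 4.07 with pseudocounts of 0.5 and 5. Kndc1, a guanine exchange factor of dendrites, had 0, 1, 2 and 572 reads in the same order. Its interaction was 6.46 (SE 0.83, limma adjusted p = 0.00215), and 7.02 and 4.78 with the other pseudocounts. Both calls were lost with edgeR, and that of B3gat1 also without the 3 libraries rich in atrial transcripts. Syndig1, an AMPA receptor partner at synapses, had means of 3.69, 6.56, 1.57 and 53.4 normalized counts and an interaction of 3.93 (SE 0.73, limma adjusted p = 0.0260). That call was lost without WT_saline 1, WT_AAV 2 or any TG_AAV library (adjusted p up to 0.0902), and 11.8% of its exon bases overlap C530025M09Rik on the other strand. Uchl1, a neuronal ubiquitin hydrolase that is also on the list of stress genes, had 71.1, 48.1 and 65.1 in WT_saline, 56.3, 59.9 and 61.1 in WT_AAV, 106, 116 and 96.7 in TG_saline, and 208, 198 and 222 in TG_AAV. TG_saline lay above all wild-type libraries and TG_AAV above TG_saline, with an interaction of 1.01 (SE 0.21, limma adjusted p = 0.0449) that was kept only without WT_saline 2 (adjusted p up to 0.128 without any other library). Reads of Uchl1 cannot be told apart from those of Uchl1os, which covers 18.1% of its exon bases on the other strand. The summed level of 10 neuronal and Schwann cell markers was 187 to 268 normalized counts in WT_saline, 257 to 295 in WT_AAV, 271 to 334 in TG_saline and 341 to 358 in TG_AAV, with Snap25 at 0 in the first 3 groups, Npy at 0 in WT_saline and TG_AAV, and Th at 0 in WT_AAV and TG_saline. That sum includes Uchl1. Without it the other 9 markers summed to 139 to 198, 197 to 234, 174 to 218 and 119 to 159 in the same order, so TG_AAV was no longer the highest group. Of the 5 markers tested 1 lay above 0, with a median interaction of -0.75. Their part in these results was not tested.

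The remaining genes called under every alternative took up trafficking, centrosome and signalling roles. Lrrcc1, a centrosome protein, had 199, 208 and 205 normalized counts in WT_saline, 230.0, 184 and 216 in WT_AAV, 208, 199 and 197 in TG_saline, and 762, 742 and 729 in TG_AAV. The 9 other libraries stood around 200 and overlapped, and the interaction was 1.85 (SE 0.13, limma adjusted p = 1.36e-05). Rab3il1, an exchange factor for Rab proteins of vesicle traffic, had means of 146 ± 5.07, 148 ± 30.7, 175 ± 12.8 and 635 ± 33.1 (SD, n = 3 each), an interaction of 1.85. Lix1l had 457, 471 and 458 in WT_saline, 396, 415 and 394 in WT_AAV, 489, 518 and 508 in TG_saline, and 1075, 1049 and 1119 in TG_AAV. Its 4 groups did not overlap with each other, the vector going with lower values in wild-type and higher values in transgenic hearts, and the interaction was 1.30 (SE 0.10, limma adjusted p = 2.02e-05). Tmem56, a membrane protein, had means of 73.7, 55.5, 85.9 and 505 and an interaction of 2.92, and Shisa4, another membrane protein, 30.8, 34.1, 45.7 and 217 with an interaction of 2.07. Asb4, a substrate receptor of a ubiquitin ligase, had means of 94.2, 82.1, 77.1 and 202 and an interaction of 1.57. Efhd2, a calcium-binding regulator of actin, had means of 216, 212, 264 and 615 and an interaction of 1.24. Prkg1, the kinase that answers to cyclic GMP, had means of 529, 481, 519.6 and 908 and an interaction of 0.94. Limma adjusted p for these last 5 genes and Rab3il1 ran from 0.000227 for Rab3il1 to 0.00461 for Prkg1.

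3 more genes had large positive interactions with few reads in the other groups. Ccno, a cyclin of cells with many cilia, had means of 3.71, 2.11, 4.49 and 92.1 normalized counts and an interaction of 5.22 (SE 0.94, limma adjusted p = 0.0224). It was lost without WT_saline 1 or 2, TG_saline 3 or any TG_AAV library (adjusted p up to 0.0775) and with edgeR. Tigd4, a gene derived from a transposon, had means of 2.58, 3.56, 2.03 and 50.5 and an interaction of 3.75 (SE 0.69, limma adjusted p = 0.0236), lost without WT_saline 2, TG_saline 1 or 3 or any TG_AAV library (adjusted p up to 0.0903). F730043M19Rik had means of 4.83, 3.95, 2.63 and 35.4 and an interaction of 3.56 (SE 0.59, limma adjusted p = 0.0147), lost without TG_AAV 2 (adjusted p = 0.0736). That call was also lost without the 3 libraries rich in atrial transcripts.

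**Figure D2:**
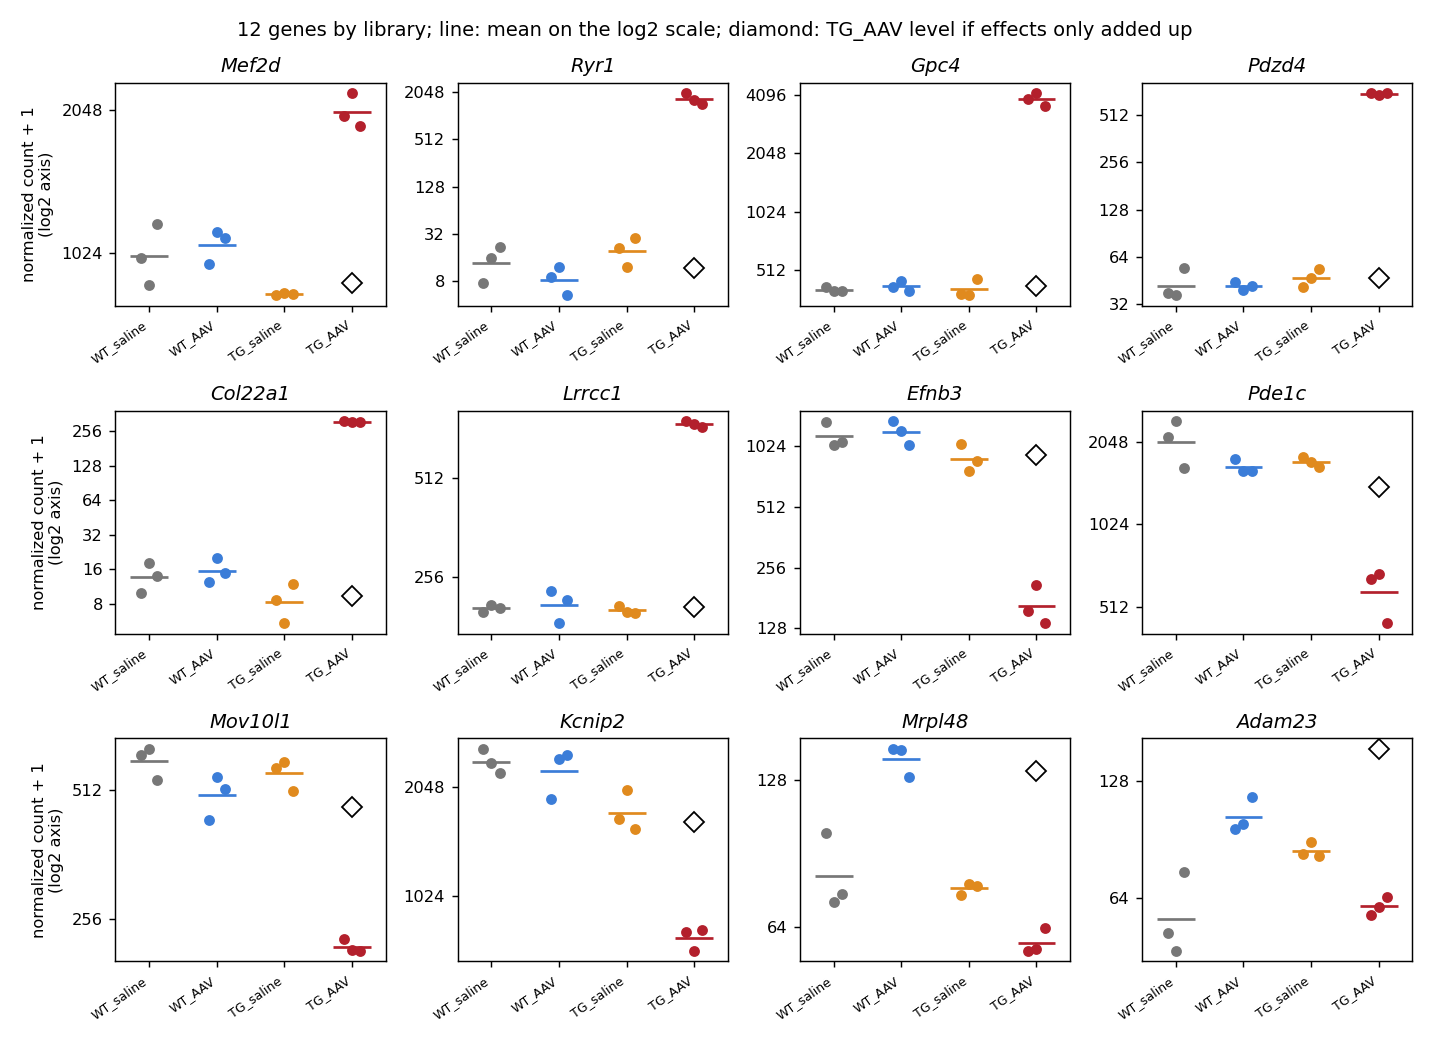
Normalized count + 1 (log2 axis) of 12 genes in each of the 12 libraries by group, points being libraries, lines the group mean on the log2 scale and open diamonds the TG_AAV level that addition of the separate effects gives. In Mef2d, Ryr1, Gpc4, Pdzd4, Col22a1 and Lrrcc1 the TG_AAV points lie above the diamond, in the other 6 genes below it, and in Mrpl48 and Adam23 the WT_AAV points are the highest.

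Below the additive level, the plot of genes by library shows Mov10l1, an RNA helicase of germ cells that is also made in mouse heart muscle under control of MEF2. Like Efnb3, Mov10l1 was called under every alternative. It had 617, 640.1 and 540.5 normalized counts in WT_saline, 436, 550.0 and 515 in WT_AAV, 577, 597 and 509.7 in TG_saline, and 229, 215 and 214 in TG_AAV. The first 3 groups overlapped and TG_AAV did not, and the interaction was -1.09 (SE 0.15, limma adjusted p = 0.00373). Pde1c, a calmodulin-dependent phosphodiesterase, had 2133, 2447 and 1647 in WT_saline, 1778, 1596 and 1609 in WT_AAV, 1799.7, 1732 and 1660.1 in TG_saline, and 645, 672 and 444 in TG_AAV. Its interaction was -1.28 (SE 0.22, limma adjusted p = 0.0176), lost without TG_saline 1 (adjusted p = 0.0529). That call was also lost with Myl7 as a term and without the 3 libraries rich in atrial transcripts. Abca4, a lipid transporter best known from the retina, had means of 134 ± 25.4, 95.9 ± 48.9, 146 ± 28.8 and 19.3 ± 3.35 (SD, n = 3 each) and an interaction of -2.29 (SE 0.40, limma adjusted p = 0.0189). Its call was lost without WT_saline 2, TG_saline 1, or TG_AAV 1 or 2 (adjusted p up to 0.0674). Lgr6, a receptor for R-spondins, had means of 687, 656, 631 and 304 and an interaction of -1.01 (SE 0.21, limma adjusted p = 0.0394), kept only without a WT_saline library (adjusted p up to 0.116 without any other).

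A pair of genes below the additive level had lower values with the transgene alone, where Ces1d passed the test with saline and Cenpf did not (limma adjusted p = 0.129). Cenpf, a centromere protein, had 1285, 1759.9 and 1388 normalized counts in WT_saline, 1089, 830.0 and 1322 in WT_AAV, 688, 504 and 843 in TG_saline, and 125, 176 and 66.0 in TG_AAV. The values were lower in each group in this order, with overlap of the wild-type groups and of WT_AAV with TG_saline. The interaction was -2.07 (SE 0.42, limma adjusted p = 0.0384), kept only without WT_saline 3, WT_AAV 2, TG_saline 2 or TG_AAV 2 (adjusted p up to 0.0988 without the others). Ces1d, a carboxylesterase of lipid breakdown, had 1625, 1713 and 2186 in WT_saline, 2514, 2148 and 1715 in WT_AAV, 822, 834 and 625 in TG_saline, and 463, 264 and 336 in TG_AAV. It was lower in TG_saline than in any wild-type library and lower again in TG_AAV, with an interaction of -1.33 (SE 0.28, limma adjusted p = 0.0449). That call was kept only without WT_saline 3, WT_AAV 3, TG_saline 3 or TG_AAV 1 (adjusted p up to 0.123 without the others), and close paralogs of Ces1d make its counts uncertain.

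Whrn, a scaffold of hair cells and photoreceptors, had means of 414 ± 165, 462 ± 105, 345 ± 13.5 and 129 ± 22.2 normalized counts (SD, n = 3 each). Its interaction of -1.63 (SE 0.33, limma adjusted p = 0.0394) was kept only without WT_saline 3 or WT_AAV 1 (adjusted p up to 0.105 without the others). Ybx2, a germ cell protein that binds nucleic acids, had means of 157, 169, 119 and 53.8 and an interaction of -1.22 (SE 0.25, limma adjusted p = 0.0433). Its call was kept only without WT_saline 3, WT_AAV 1 or TG_saline 3 (adjusted p up to 0.122 without the others).

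In 2 genes the interaction came mainly from the wild-type side. Mrpl48, a protein of the mitochondrial ribosome, had 98.8, 71.0 and 73.8 normalized counts in WT_saline, 147, 146 and 129 in WT_AAV, 73.5, 77.3 and 76.8 in TG_saline, and 56.2, 56.8 and 62.9 in TG_AAV. WT_AAV was above all other libraries and TG_AAV below them, with vector effects of 0.80 in wild-type and -0.37 in transgenic hearts, neither of which passed its own test. The interaction was -1.17 (SE 0.21, limma adjusted p = 0.0196), lost without WT_saline 2, WT_AAV 2, or TG_AAV 1 or 2 (adjusted p up to 0.0715). Adam23, a cell surface protein of the ADAM family without protease activity, had 51.1, 45.8 and 73.8 in WT_saline, 95.4, 98.4 and 116 in WT_AAV, 82.2, 88.4 and 81.3 in TG_saline, and 56.9, 59.8 and 63.7 in TG_AAV. Here TG_AAV lay within the range of WT_saline while WT_AAV stood above all others, with effects of 0.87 and -0.48. The interaction was -1.35 (SE 0.24, limma adjusted p = 0.0224), lost without WT_saline 1 or 2, TG_saline 1 or 2, or any TG_AAV library (adjusted p up to 0.0730).

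**Figure D3:**
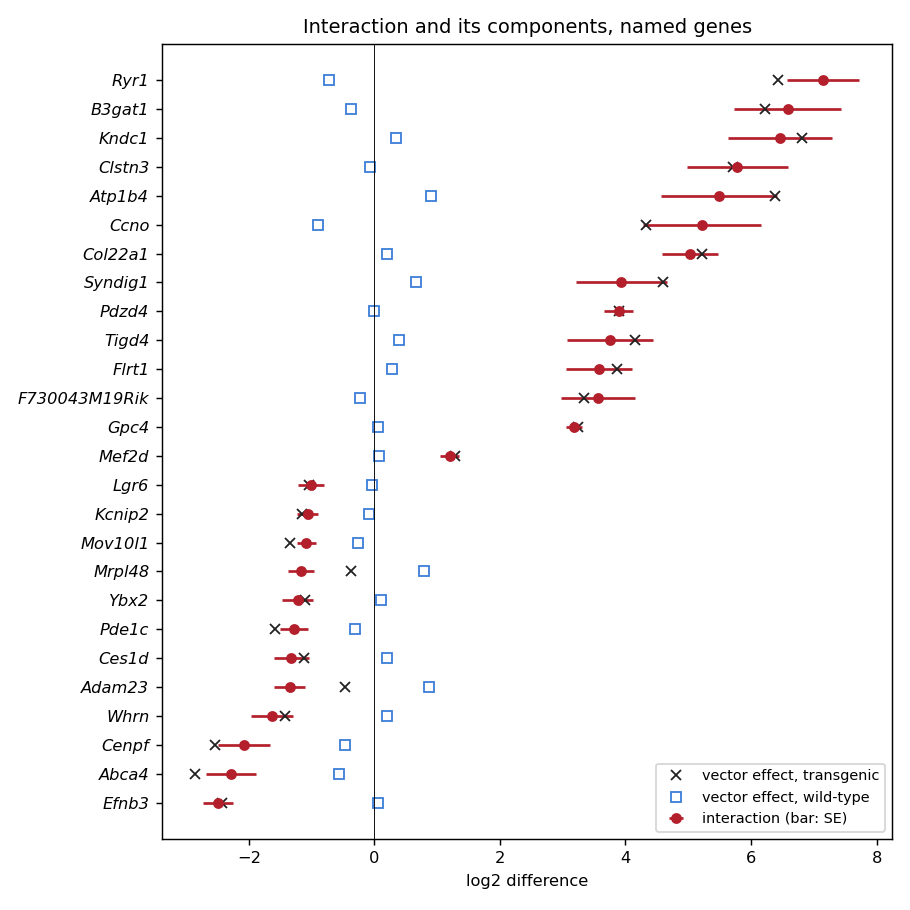
Interaction (red point, bar: SE) of the 24 genes named by rule with Gpc4 and Mef2d, beside the vector effect in transgenic (cross) and wild-type hearts (square), all as log2 differences on the x axis. The gap between a cross and its red point is the wild-type effect. It was 0.90 in Atp1b4, -0.89 in Ccno, 0.87 in Adam23 and 0.80 in Mrpl48. Only in Adam23 and Mrpl48 was the wild-type effect larger in size than the transgenic one.

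The same interaction read the other way is the transgene effect with the vector minus that with saline. With the vector the transgene changed 2450 genes, 18.8% (1385 higher, 10.6%, and 1065 lower, 8.17%), a count of 1538, 1605 and 1450 without TG_AAV 1, 2 and 3. With saline it changed 13 genes, 0.0998% (11 higher, 0.0844%, and 2 lower, 0.0153%). Of these 13, Ces1d alone was called in the interaction, and the interactions of the other 12 ran from -0.49 in Pfkfb1 to 0.73 in Prkcz. The count of 13 was 40, 2, 20, 4 and 34 without WT_saline 2, WT_saline 3, WT_AAV 1, WT_AAV 2 and WT_AAV 3, 35, 0 and 2 without TG_saline 1, 2 and 3, and 4, 5 and 3 without TG_AAV 1, 2 and 3. The 80 positive genes had a median transgene effect of 0.11 with saline and the 31 negative genes of -0.18, against -0.01 for all tested genes.

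Gene lists were read by counts and medians, against a median interaction of 0.01 over all tested genes. Of all tested genes, 0.614% were called higher and 0.238% lower. At such shares, 0 called in any of these short lists is no result about its members. Among the MEF2 family, Mef2a had means of 3929, 3508, 3608 and 2928 normalized counts and an interaction of -0.13 (limma adjusted p = 0.818), and Mef2c 1807, 1626, 1652 and 1580.1 with 0.08 (limma adjusted p = 0.882). Of 22 tested MEF2 target genes 0 were called higher and 1 lower, Hrc, with a list median of 0.10 (0.03 without WT_AAV 3). Ckm, muscle creatine kinase, had means of 20230.1, 19586, 19101 and 9855 and did not pass (-0.89, limma adjusted p = 0.0521). Of 7 tested neighbours of Mef2d, 0 were called, with a median of 0.19 (0.09 without WT_AAV 3) and Apoa1bp at 0.29 (limma adjusted p = 0.379). Of 4 class IIa histone deacetylases, 0 were called and the median was 0.04 (-0.06 without WT_saline 3 to 0.13 without TG_AAV 3).

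**Figure D4:**
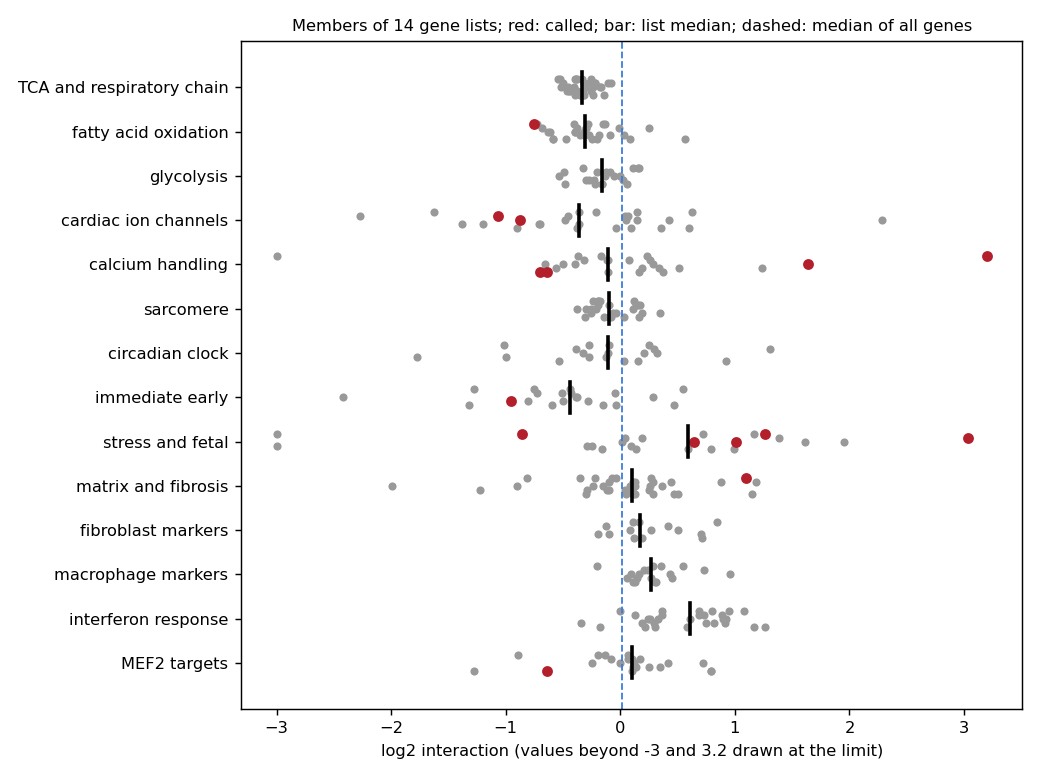
Interaction (log2, x axis) of each tested member of 14 gene lists, grey where not called and red where called, with the list median as a bar and the median of all tested genes, 0.01, as a dashed line. All 36 members of the TCA cycle and respiratory chain list lie to the left of 0 without a call, and 26 of 29 interferon response genes lie to the right. 4 points beyond -3 or 3.2 are drawn at the limit.

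In the plot of gene lists, those of energy metabolism lay below 0 with hardly a called member. The TCA cycle and respiratory chain list had 0 of 36 members called in either direction and 0 of 36 above 0, with a median of -0.34 (-0.45 without WT_AAV 3 to -0.26 without WT_AAV 1). Sdha, a subunit of succinate dehydrogenase, had means of 16396, 17752, 15754 and 11688 normalized counts and an interaction of -0.54 (limma adjusted p = 0.109). Cs, citrate synthase, had 14965, 14682, 13751 and 9419, at -0.51 (limma adjusted p = 0.224). In transgenic hearts alone 13 of the 36 fell with the vector, against 2.4% of all tested genes. Fatty acid oxidation genes had a median of -0.30 over 31 members (-0.48 without WT_AAV 3 to -0.21 without WT_AAV 1), of which 4 were above 0 and 1 was called lower. That gene was Etfb, an electron carrier subunit, with 4265, 3809 and 4860.0 in WT_saline, 4175, 4918 and 4386 in WT_AAV, 3847, 3792 and 3740.4 in TG_saline, and 2309.7, 2408 and 2326 in TG_AAV. TG_AAV lay below all others and the interaction was -0.76 (SE 0.13, limma adjusted p = 0.0176). The call of Etfb was lost without TG_saline 1 or any TG_AAV library (adjusted p up to 0.0564), and Gm45233 covers 53.0% of its exon bases on the same strand. Of 21 glycolysis genes 0 were called, with a median of -0.16 (-0.24 without TG_saline 3 to -0.08 without TG_saline 2). The summed level of 10 ventricular muscle markers was lowest in TG_AAV, 1626640 to 1757560 normalized counts, against 1775660 to 1937290 in TG_saline, 1943050 to 2192770 in WT_AAV and 1997720 to 2228640 in WT_saline. Its part in the metabolic lists was not tested.

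Of 23 tested genes of stress and of the fetal heart 4 were called higher and 1 lower, beside 0.614% and 0.238% of all tested genes, with a median of 0.59 (0.22 without WT_saline 1 to 0.66 without WT_AAV 1, and 0.20 without the 3 wild-type libraries set aside earlier). Nmrk2, a kinase of NAD synthesis in stressed muscle, had 25.5, 27.5 and 17.4 normalized counts in WT_saline, 10.3, 7.10 and 21.4 in WT_AAV, 21.3, 11 and 28.9 in TG_saline, and 81.7, 92.7 and 83.5 in TG_AAV. TG_AAV was above all others, which overlapped, and the interaction was 3.03 (SE 0.54, limma adjusted p = 0.0217), lost without WT_saline 1 or 2 or any TG_AAV library (adjusted p up to 0.0756). Of the exon bases of Nmrk2, 14.6% overlap Atcayos on the other strand, and reads there cannot be told apart. Rcan1, an inhibitor of calcineurin, had means of 658 ± 109, 614 ± 79.0, 756 ± 8.90 and 1759.8 ± 556 (SD, n = 3 each) and an interaction of 1.26 (SE 0.26, limma adjusted p = 0.0436). Its call was kept only without WT_saline 3 or TG_AAV 3 (adjusted p up to 0.113 without the others). Enah, an actin regulator, had means of 1999, 2073, 2194 and 3559.9 and an interaction of 0.64 (SE 0.12, limma adjusted p = 0.0224), lost without WT_saline 1 or 2, WT_AAV 2, TG_saline 1, or TG_AAV 1 or 2 (adjusted p up to 0.0812). Uchl1, described above, was the other member called higher. Fhl1, a LIM protein of the sarcomere, was lower, with means of 1274, 1313, 1091 and 622 and an interaction of -0.86 (SE 0.18, limma adjusted p = 0.0406), kept only without WT_saline 3 or WT_AAV 3 (adjusted p up to 0.113 without the others).

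The interferon response list had 0 of 29 members called and 26 of 29 above 0, with a median of 0.61 (0.41 without TG_saline 3 to 0.81 without TG_saline 1). Ifit2 had means of 336, 314, 361 and 579 normalized counts and an interaction of 0.82 (limma adjusted p = 0.156), and Irf7, a regulator of interferon genes, 149, 144, 161 and 279 with 0.92 (limma adjusted p = 0.332). Of 19 tested macrophage markers 0 were called and 18 lay above 0, with a median of 0.27 (0.10 without TG_saline 2 to 0.43 without TG_saline 1). Their summed level over 20 markers was 5613 to 7652 normalized counts in WT_saline, 5373 to 7115 in WT_AAV, 4684 to 6155 in TG_saline and 5803 to 6634 in TG_AAV, with no marker at 0 in any group. The part of these markers in the interferon list was not tested.

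Of 37 matrix and fibrosis genes only Col8a1 was called, and the list median was 0.10 (-0.06 without WT_AAV 2 to 0.22 without WT_AAV 3). Thbs1, a thrombospondin, had means of 81.3, 289, 195 and 168 and did not pass (-2.0, limma adjusted p = 0.0628). The 14 fibroblast markers had 0 called and a median of 0.18 (0.03 without WT_AAV 2 to 0.29 without WT_saline 1). Their sum was 43881 to 45707 in TG_AAV, above the 31152 to 33807 of TG_saline, the 28781 to 35634 of WT_saline and the 30989 to 42626 of WT_AAV. None of the 14 was at 0 in any group, and their part in the matrix list was not tested. Of 21 immediate early genes 0 were called higher and 1 lower, with a median of -0.44 (-0.66 without WT_AAV 2 to -0.06 without WT_AAV 1, and -1.32 without the 3 wild-type libraries set aside earlier). The called gene, Ier2, had means of 126, 146, 119 and 70.7 and an interaction of -0.95 (SE 0.19, limma adjusted p = 0.0368), kept only without WT_saline 3, WT_AAV 3 or TG_saline 3 (adjusted p up to 0.108 without the others).

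Lists of muscle function are read beside the 0.852% called among all tested genes. Of 27 cardiac ion channel genes 0 were called higher and 2 lower, Kcnip2 and Kcnk3, with a median of -0.36 (-0.48 without TG_saline 3 to -0.07 without TG_saline 1). Scn4b, a sodium channel subunit, had means of 527, 552, 465 and 2057 and did not pass (2.29, limma adjusted p = 0.0750), and Cacna1g, a T-type calcium channel, had 610.5, 699, 507 and 196 (-1.63, limma adjusted p = 0.0588). Of 25 calcium handling genes 2 were called higher and 2 lower, those described above, with a median of -0.10 (0.07 without WT_saline 3). Of 26 sarcomere genes 0 were called, with a median of -0.10 that was 0.0024 with quantile normalization. Of 19 circadian clock genes 0 were called, with a median of -0.11 (-0.06 without TG_saline 2) and Dbp, a clock output factor, at means of 1982, 1544, 1886 and 736 (-1.02, limma adjusted p = 0.204).

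The atrial Myl7 and the skeletal Myh2 moved with single libraries. Myl7 had 8.88, 1.15 and 5.43 normalized counts in WT_saline, 2042, 3.04 and 1693 in WT_AAV, 728, 4.42 and 258 in TG_saline, and 1505, 6.97 and 19.1 in TG_AAV. It had the most negative interaction of all tested genes, -6.25, with an SE of 3.42 and a limma adjusted p of 0.504. Of 9 tested atrial markers 0 were called higher and 1 lower, and 1 lay above 0, with a median of -0.92 (-0.70 without the 3 libraries rich in atrial transcripts). The called gene was Clu, a secreted chaperone, with means of 3328, 3868, 3989.5 and 2454 and an interaction of -0.92 (SE 0.17, limma adjusted p = 0.0294). Clu was lost without WT_saline 1 or 2, WT_AAV 1 or 2, TG_saline 1 or 2, or TG_AAV 2 or 3 (adjusted p up to 0.0812) and with Myl7 as a term (-0.97, adjusted p = 0.0875) or Myh2 as a term (-0.93, adjusted p = 0.0531). It was kept without the 3 atrial-rich libraries (-1.18, adjusted p = 0.0283). The summed level of the 10 atrial markers was 6055 to 7126 in WT_saline, 6975 to 13626 in WT_AAV, 7614 to 9878 in TG_saline and 5107 to 10712 in TG_AAV. Bmp10 was at 0 in WT_saline and TG_AAV. Clu, at the means above, is a large part of this sum, so the sum does not measure atrial content alone. Of 8 tested skeletal muscle markers Ryr1 alone was called, with a list median of 0.55 that was -0.54 without the 3 wild-type libraries set aside earlier. With the vector in transgenic hearts, 3 of these 8 were called higher, beside 3.69% of all tested genes. The sum of 12 skeletal muscle markers left out Ryr1 and Cacna1s. It was 335 to 1688 in WT_saline, 383 to 1820.3 in WT_AAV, 484 to 1528 in TG_saline and 917 to 1775 in TG_AAV. Myh4 was at 0 in TG_saline. Myh2 alone ran from 944 to 1272 in some libraries and up to 3.04 in the others. That is most of the spread of this sum within each group, so the sum does not show the level of the other markers. In TG_AAV 3, where Myh2 was 0.796, Ryr1 stood at 1442. The sum there was 917, the lowest of TG_AAV and above the lowest of each other group (335, 383 and 484). The part of skeletal muscle content in the Ryr1 result was not tested.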

How the data were processed

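The deposited table holds normalized counts per gene symbol (a depth-scaled signal) in 12 ventricular libraries, deposited by the authors as normalized and, from the values themselves, whole reads times 1 factor per library. Bowtie2 2.0, DESeq2 and the build mm9 are named per the submitters' processing notes; the counting tool, annotation and strand setting are not named in those notes or in the labels. Recovered reads, each value divided by the step that 1 read is worth, came out whole within 0.01 for 100% of positive values. Totals were 10233281 to 14911986 reads, and replicates of a group differed by 4.96 to 25.5 times counting noise (chi-square per degree of freedom).

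Values were tested as log2(deposited normalized count + 1) with limma 3.58.1 (trend) in R 4.3.3, fitting 4 group means over all 12 libraries, with Benjamini-Hochberg adjustment over 13030 genes and a threshold of 0.05. Fold changes on this scale understate those of low genes. Zc3h12d and Rpp25 lay just inside the minimum mean of 10 (10.0 each) and Tox2 just outside (9.99). 5583 symbols were at 0 in every library, and 27 had been turned into dates, of which 21 were tested and 0 called. The script was tested on simulated data with known changes. Alternatives were edgeR 4.0.16 and DESeq2 1.42.0 on the recovered reads, other pseudocounts, filters and scalings, covariate terms, a replicate block, and leaving libraries out. Named genes were the 12 higher and 12 lower with the largest called interaction and TG_AAV outside the other 9 libraries, up to 6 per direction that were not outside, called members of gene lists, and Mef2d with its family and neighbours. One gene that this rule names is not reported here. The members and lists were chosen with earlier results of these data known.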

Additional observations from a re-analysis of the deposited data

Results flagged for a closer look

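For the genes listed here the vector effect differed between transgenic and wild-type hearts by the test of that difference itself (limma interaction, adjusted p under 0.05). The values here are the effect in transgenic minus that in wild-type hearts on the log2 scale, and 3 libraries stand behind each group. Mef2d stood at 1.20.

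Among genes of calcium, channels and the cell membrane the difference was 7.15 for Ryr1, 5.49 for Atp1b4, 3.10 for Kcnn3, 1.64 for Camk2b, -0.70 for Camk2a, -0.64 for Hrc, -0.87 for Kcnk3 and -1.06 for Kcnip2. Among surface, matrix and adhesion genes it was 3.18 for Gpc4, 3.53 for Pigz, 5.03 for Col22a1, 1.09 for Col8a1, 3.58 for Flrt1, 5.78 for Clstn3, -2.50 for Efnb3 and -1.35 for Adam23. Genes known from neurons and synapses gave 6.58 for B3gat1, 6.46 for Kndc1, 3.93 for Syndig1, 3.89 for Pdzd4, 0.80 for Mpdz and 1.01 for Uchl1.

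Stress, metabolic and early response genes gave 3.03 for Nmrk2, 1.26 for Rcan1, 0.64 for Enah, -0.86 for Fhl1, -0.76 for Etfb, -0.95 for Ier2, -0.92 for Clu, -1.33 for Ces1d and -1.17 for Mrpl48. The remaining positive differences were 5.22 for Ccno, 3.75 for Tigd4, 3.56 for F730043M19Rik, 2.92 for Tmem56, 2.07 for Shisa4, 1.85 for Rab3il1, 1.85 for Lrrcc1, 1.57 for Asb4, 1.30 for Lix1l, 1.24 for Efhd2, 1.09 for Tcea3, 0.94 for Prkg1 and 0.70 for Limch1. The remaining negative differences were -2.29 for Abca4, -2.07 for Cenpf, -1.63 for Whrn, -1.28 for Pde1c, -1.22 for Ybx2, -1.09 for Mov10l1 and -1.01 for Lgr6.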

How the results depend on the processing

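The interaction called 41 genes (34 higher, 7 lower) with Myl7 as a term, 37 (28 and 9) without the 3 libraries rich in atrial transcripts, 259 (143 and 116) without the 3 wild-type libraries set aside earlier, 274 (178 and 96) with DESeq2, and 69 (49 and 20) with a Myh2 term, which was chosen after seeing the data. Of the 111 genes, 39, 27, 87, 111 and 66 were called there. With single libraries left out, 39 to 192 genes were called, 30 to 127 higher and 8 to 65 lower. Other pseudocounts, filters, scalings, a robust variance, an Xist term and edgeR gave 90 to 158. Same-numbered libraries of different groups correlated from -0.158 to 0.332 (8 of 18 pairs above 0.1), and other pairs from -0.368 to 0.345. These overlapping ranges do not settle whether the numbers pair the samples, and the main fit takes them as unpaired. The replicate block called 156, of which 48 were lower.

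The vector effect in transgenic hearts called 523 genes without the atrial-rich libraries, 1746 without the 3 wild-type libraries, and 400 to 1054 without single libraries. That in wild-type hearts called 1 with no filter, 4 and 45 without those sets, 11 with DESeq2, and 0 to 2 without single libraries. The transgene effect with the vector called 711 without the atrial-rich libraries and 1450 to 2967 without single libraries. With saline it called 38 with a robust variance, 32 with the replicate block, 3 with the Myl7 or the Myh2 term, 4 and 27 without those sets, 36 with edgeR, 220 with DESeq2, and 0 to 40 without single libraries. Mef2d stood at 1.13 (limma adjusted p = 0.0566) without the atrial-rich libraries. None of the 111 called genes changed direction in an alternative that tested it. Medians of lists with few or no calls did, such as skeletal muscle (0.55, and -0.54 without the 3 wild-type libraries) and epicardium (-0.38, and 0.41 without the atrial-rich ones), and so did the uncalled Myh2 and Sln. Both of these sets leave 1 WT_AAV library. The causes were not tested. Groups of 3 limit the precision, most of all for genes with few reads.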

Other observations

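Values in brackets are the lowest and highest median with 1 library left out. Of the cell type lists not described above, 16 endothelial markers had 0 called genes, 2 above 0 and a median interaction of -0.15 (-0.29 to -0.09). A median of -0.06 (-0.31 to 0.09) was found for 12 mural markers, -0.38 (-0.82 to 0.06) for 6 epicardial markers and -1.68 (-3.61 without WT_AAV 2 to -0.69 without TG_saline 1) for 5 adipocyte markers, none of them with a called member. The mural sign turned without WT_AAV 3 and the epicardial sign without WT_AAV 1. 10 ventricular markers had a median of -0.17 (-0.25 to -0.11) with 0 called. Among the neuronal and Schwann cell markers, Dbh, the enzyme that makes noradrenaline, stood at -2.10 (limma adjusted p = 0.0521).

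Of 20 genes of the unfolded protein response 0 were called and 14 lay above 0, with a median of 0.23 (0.16 to 0.25). The median was -0.05 (-0.22 without WT_AAV 3 to 0.25 without WT_AAV 1) for 17 heat shock genes, 0.15 (0.05 to 0.19) for 19 apoptosis and p53 genes, and -0.06 (-0.28 without WT_saline 2 to 0.15 without TG_saline 1) for 17 antigen presentation genes. It was -0.09 (-0.16 to -0.02) for 17 metabolic regulators and 0.06 (0.01 to 0.10) for 22 ribosomal protein genes, with 0 called in each of these lists. Of 20 cell cycle genes Cenpf alone was called, with a median of 0.10 (-0.06 without WT_saline 1 to 0.26 without WT_saline 3). Cardiac transcription factors (18) had 0 called and a median of -0.13 (-0.19 to -0.06), with Hand2 at -1.38 (limma adjusted p = 0.121).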
